A study of Homo sapiens with 12 samples.

Results

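Gene expression in AGS cells, a line established from a human gastric adenocarcinoma, was compared between 2 arrays of cells kept for 48 h with mycophenolic acid (MPA) at 2 µg/ml and 4 arrays of untreated cells (0 h), chosen by their titles. These are 6 of the 12 arrays of the series, which also holds 2 arrays each for 12, 24 and 72 h of MPA, and the question was which genes MPA alters in cells whose migration it reduces. Both groups are the same cell line with no genetic change, so they differ in MPA and in time. The series has no untreated cells for any time after 0 h, and hours with MPA and hours in culture cannot be told apart. Whether replicate arrays come from separate cultures is not stated, so p-values cover only the spread between these arrays, which could be technical. A level below is a log2 intensity on the quantile-normalized scale, a log2 fold change is 48 h minus 0 h with the standard error (SE) of the limma fit, and a gene passed the test at an adjusted p under 0.05 over all 10469 genes tested. Levels of different genes come from different probes and are not set against each other.

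MPA blocks inosine monophosphate dehydrogenase (IMPDH), the enzyme that makes the precursor of guanine nucleotides, and so lowers the cell's supply of GTP for DNA, RNA and signaling. Cells short of GTP can stop dividing, and genes of S phase and mitosis are repressed when cells leave the cycle. AGS cells keep an epithelial character, and the drug itself is used in patients to restrain lymphocyte proliferation after transplantation.

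After 48 h with MPA, 2172 genes (20.7%) were higher and 2385 (22.8%) were lower than at 0 h, and 5912 did not pass the test. The counts of every gene list below are to be read beside these shares of all genes. At least 2-fold changes were found for 562 genes upward (5.37%) and 464 downward (4.43%), and at least 4-fold changes for 108 and 36. The 2 arrays of 48 h differed from each other by a standard deviation of 0.29 over genes on the log2 scale and the 0 h arrays among themselves by 0.25 to 0.32, against 0.67 to 0.71 between a 48 h and a 0 h array. Of all genes, 5920 (56.5%) had both 48 h values outside the range of the 0 h values, among them 2142 of the genes called higher and 2342 of those called lower. The median log2 fold change of all genes was -0.04. When the arrays were scaled to a common median instead of quantile normalized, this median moved to -0.31 and the split to 942 higher against 3574 lower, so small changes are read here relative to the median gene. Of the genes tested, 183 were detected on both 48 h arrays and on no 0 h array, of which 172 were called higher, and 116 were detected on all 0 h arrays and on neither 48 h array, of which 112 were called lower.

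**Figure D1:**
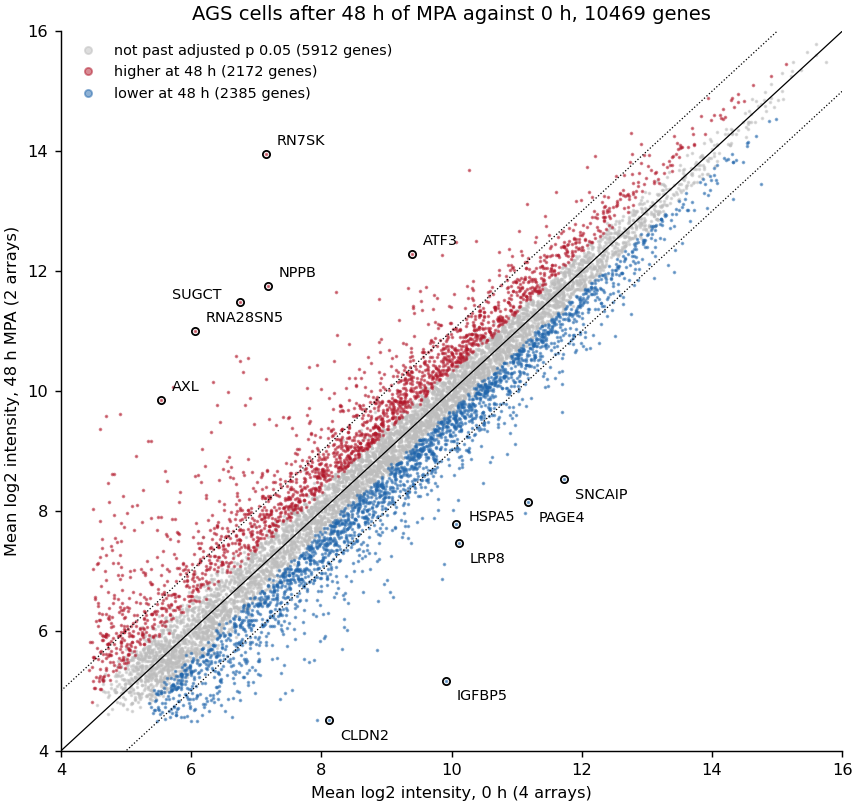
Mean log2 intensity of each of 10469 genes at 48 h (y axis, 2 arrays) against 0 h (x axis, 4 arrays). The solid line marks equal levels and the dotted lines a 2-fold difference, and red and blue points are the 2172 higher and 2385 lower genes.

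The markers listed for the identity of the cells were those of a gastric epithelial line. Of 14 such genes, 12 were tested and 11 of these, among them EPCAM, KRT8, KRT19 and CDH1, did not pass the test, while KLF5 was higher (0.51 ± 0.17, adjusted p = 0.024), a call that was lost without 48 h replicate 2 (0.30), without 0 h replicate 4 (0.45) and under median scaling (0.22). Of markers of other cells, 1 of 9 fibroblast genes was tested (COL1A1, detected on no 48 h array and at least 2.06-fold lower), 3 of 9 leukocyte genes (CD68, which epithelial cells also express, 0.73 ± 0.12, adjusted p = 0.00037, and 0.39 without passing under median scaling, while its other probe gave 2.07 ± 0.12) and 1 of 7 endothelial genes, and the defining markers PTPRC, CD3E, DCN and CDH5 did not reach the detection limit for testing. Detected probes numbered 14837 and 14916 on the 48 h arrays and 14077 to 14893 on the 0 h arrays. The 95th percentile of intensity over the 5th, a measure of the range of signals on an array, was 22.3 and 26.2 at 48 h and 24.3 to 36.9 at 0 h, and the part of this difference in the results was not tested.

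The target of the drug came first. IMPDH2, the main form of the enzyme in dividing cells, had levels of 12.94 and 12.99 at 48 h, against 12.19, 12.24, 12.58 and 12.27 at 0 h. All values at 48 h lay above all values at 0 h, and the gene rose (0.65 ± 0.12, adjusted p = 0.0011), though not past the test under median scaling (0.24, adjusted p = 0.34). IMPDH1, the second form, had levels of 9.97 and 9.75 at 48 h, against 10.08, 10.29, 10.53 and 10.43 at 0 h, and it was lower (-0.47 ± 0.14, adjusted p = 0.019). The gap between the groups was narrow for IMPDH1, which no longer passed the test without 48 h replicate 2 (-0.36, adjusted p = 0.17). Of 18 tested genes of purine nucleotide synthesis, 4 were higher and 6 lower, which are near the 20.7% and 22.8% of all genes, and 1 and 9 passed under median scaling. ADSS1, the muscle form of adenylosuccinate synthetase, which draws on GTP to make AMP, was 8.75 and 8.58 at 48 h, against 7.20, 7.17, 7.16 and 7.14 at 0 h (1.50 ± 0.11, adjusted p = 7.9e-07), a rise with no overlap, although its other probe did not pass (-0.21). PFAS, a step of the de novo pathway, fell (-0.61 ± 0.12, adjusted p = 0.0014), and so did NME2, a nucleoside diphosphate kinase (-0.84 ± 0.15, adjusted p = 0.00065). Pyrimidine and deoxynucleotide genes gave 2 higher and 7 lower of 20, against the same shares of all genes. The folate carrier gene SLC19A1 was detected on all 0 h arrays and on no 48 h array, at least 4.61-fold lower, and RRM2B, an inducible subunit of ribonucleotide reductase, was higher (1.66 ± 0.20, adjusted p = 4.3e-05). A fold written as "at least" sets the mean of the brighter group against the lowest signal that counted as detected on the arrays of the dimmer group, or the probe's own signal where that was higher.

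The 12 highest log2 fold changes began with RNAs that are not messengers. RN7SK, the 7SK RNA that holds back the elongation factor P-TEFb, was 13.95 and 13.96 at 48 h, against 7.50, 7.17, 7.18 and 6.74 at 0 h. It was the gene with the largest change among those tested (6.81 ± 0.17, adjusted p = 5.1e-11). RNA28SN5, a gene of 28S ribosomal RNA, was 11.20 and 10.80 at 48 h, against 6.95, 6.11, 5.84 and 5.34 at 0 h, also far apart (4.94 ± 0.33, adjusted p = 2.5e-07), although it was detected on 2 of the 4 arrays at 0 h. RNU6ATAC, a small RNA of the minor spliceosome, was below detection on every 0 h array and at least 5.52-fold higher. These RNAs normally lack a poly(A) tail, and the study primed its labelling with oligo-dT. The part of the priming in their values was not tested.

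Among protein-coding genes, SUGCT, a mitochondrial transferase of glutarate, was 11.54 and 11.42 at 48 h, against 6.66, 6.75, 6.82 and 6.79 at 0 h (4.73 ± 0.11, adjusted p = 5.1e-11). NPPB, the precursor of B-type natriuretic peptide, was 11.94 and 11.56 at 48 h, against 6.64, 6.88, 7.89 and 7.29 at 0 h (4.58 ± 0.26, adjusted p = 6.5e-08). Neither gene overlapped between the groups, and the 4 values of NPPB at 0 h were spread more widely than those of SUGCT. AXL, a receptor tyrosine kinase whose ligand is GAS6, was 9.87 and 9.82 at 48 h, against 5.54, 5.97, 5.86 and 4.80 at 0 h (4.30 ± 0.24, adjusted p = 5.6e-08). It was detected on 1 of the 4 arrays at 0 h and on both at 48 h. AKR1B10, an aldo-keto reductase, was 10.63 and 10.53 at 48 h, against 6.68, 6.63, 6.90 and 6.57 at 0 h (3.89 ± 0.13, adjusted p = 1.1e-09), which were tight and distant groups. GRIN2C, an NMDA receptor subunit, and LAMC3, a laminin chain, had log2 fold changes of 4.35 and 3.84.

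Further genes were detected on both 48 h arrays and on none of the 0 h arrays. LCE1B, a protein of the late cornified envelope of skin, was 9.66 and 9.50 at 48 h, against 4.80, 4.45, 4.89 and 4.65 at 0 h, at least 15.0-fold higher (adjusted p = 1.3e-09). LGALS7, galectin-7 of stratified epithelium, was 9.72 and 9.53 at 48 h, against 5.51, 4.66, 4.65 and 4.83 at 0 h, at least 15.4-fold higher, and its near-identical neighbour LGALS7B can share its signal. These genes are known from skin rather than stomach, and every value at 48 h was above every value at 0 h. RIMBP3, a gene with near-identical copies and known from testis, was at least 12.8-fold higher, and CYGB, the oxygen-binding cytoglobin, at least 7.64-fold.

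At the other end, IGFBP5, which binds insulin-like growth factors, was 5.36 and 4.98 at 48 h, against 10.26, 9.89, 9.60 and 9.92 at 0 h. It was detected on every 0 h array and on no 48 h array, at least 19.9-fold lower (adjusted p = 1.3e-09). CLDN2, a claudin that forms pores for cations in tight junctions, was 4.50 and 4.52 at 48 h, against 8.14, 8.15, 8.06 and 8.12 at 0 h, at least 5.71-fold lower, and NLRP7, an inflammasome gene, was at least 5.01-fold lower. Both had lost detection on the 48 h arrays. SNCAIP, which encodes synphilin-1, stayed measurable at 8.63 and 8.45 at 48 h, against 11.97, 11.76, 11.61 and 11.59 at 0 h (-3.19 ± 0.14, adjusted p = 4.6e-09). NAV2, a neuron navigator, was 7.78 and 8.14 at 48 h, against 11.24, 11.28, 10.87 and 11.14 at 0 h (-3.17 ± 0.16, adjusted p = 2.3e-08). PAGE4, a cancer/testis antigen, was 7.95 and 8.33 at 48 h, against 11.34, 11.21, 11.20 and 10.94 at 0 h (-3.03 ± 0.16, adjusted p = 2.5e-08), so that each of these genes was separated by more than the width of either group. SLCO2A1, the prostaglandin transporter, SLC38A10, an amino acid transporter, and D2HGDH, the dehydrogenase of D-2-hydroxyglutarate, had log2 fold changes of -3.16, -2.99 and -2.77. LGALS4, a galectin of the gut epithelium, had one of -2.62. HSPA1A, the inducible heat shock protein, whose near-identical copy HSPA1B can share its signal, was at least 3.86-fold lower.

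**Figure D2:**
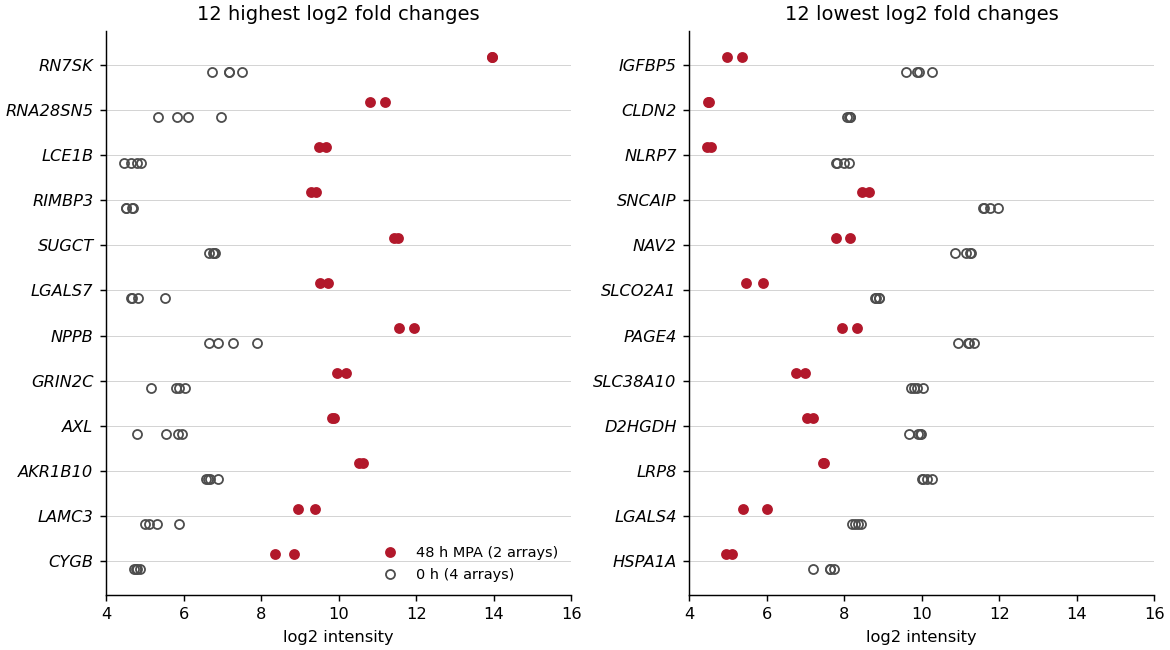
Log2 intensity (x axis) of the 12 genes with the highest and the 12 with the lowest log2 fold change by the naming rule. Filled points are the 2 arrays of 48 h and open points the 4 arrays of 0 h, and the groups do not overlap for any of the 24 genes, which the rule required.

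Of 30 tested apoptosis regulators, 10 were higher and 5 lower (4 and 6 under median scaling), against 20.7% and 22.8% of all genes. The largest changes of that list were those of FAS, which rose, and BIRC5, which fell (-1.01). TP53I3, TP53INP1 and PPM1D, given next, are not in that list. TP53I3, a quinone oxidoreductase, was 13.78 and 13.60 at 48 h, against 10.21, 10.11, 10.46 and 10.27 at 0 h (3.43 ± 0.12, adjusted p = 1.3e-09). TP53INP1, a cofactor of cell death and autophagy, was 11.60 and 11.75 at 48 h, against 9.64, 9.44, 9.38 and 9.62 at 0 h (2.15 ± 0.13, adjusted p = 8e-08). PPM1D, a phosphatase of the DNA damage response, was higher as well (1.88 ± 0.16, adjusted p = 2.6e-06). FAS, which encodes a death receptor, was detected on both 48 h arrays and on no 0 h array, at least 2.55-fold higher. Every value of TP53I3, TP53INP1, PPM1D and FAS at 48 h lay above those at 0 h.

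MDM2, a ubiquitin ligase, was 7.94 and 7.68 at 48 h, against 6.66, 6.28, 6.21 and 6.47 at 0 h (1.41 ± 0.15, adjusted p = 1.2e-05). CDKN1A, the p21 inhibitor of cyclin-dependent kinases, was 13.92 and 13.69 at 48 h, against 12.67, 12.76, 12.96 and 13.23 at 0 h (0.90 ± 0.15, adjusted p = 0.00049). Its change was smaller than that of MDM2 and its 0 h values were more spread, yet the groups did not overlap. GDF15, GADD45A and CYFIP2 were also higher, at 1.71, 1.40 and 1.79. CCNG1, the cyclin G1 gene, did not pass (0.21, and -0.19 under median scaling). SESN2, a sestrin of the stress response, lay just outside the threshold (0.51 ± 0.20, adjusted p = 0.054) and passed without 48 h replicate 1 (0.89), without 0 h replicate 4 (0.57), with a replicate block (0.68) and under 5 other alternatives (0.32 to 0.72).

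Mitotic genes were lower nearly throughout. Of 38 tested genes of G2/M and mitosis, 32 fell and 0 rose in the limma fit (0 at an unadjusted p under 0.05), against 22.8% and 20.7% of all genes, with 10 at least 2-fold lower and a median log2 fold change of -0.85 (-1.19 with median scaling). PLK1, the polo-like kinase of mitotic entry, was 8.56 and 8.65 at 48 h, against 9.92, 10.16, 9.99 and 10.10 at 0 h (-1.44 ± 0.13, adjusted p = 2.5e-06). BUB1, a kinase of the spindle checkpoint, was 10.32 and 10.10 at 48 h, against 11.63, 11.68, 11.39 and 11.68 at 0 h (-1.38 ± 0.12, adjusted p = 3.2e-06). FOXM1, the transcription factor of this programme, was 9.60 and 9.20 at 48 h, against 10.61, 10.77, 10.84 and 10.62 at 0 h (-1.31 ± 0.17, adjusted p = 6.2e-05). The groups were apart in all 3 genes by more than the spread of the 0 h arrays. DLGAP5, a spindle protein, had a log2 fold change of -1.27, and BIRC5, the survivin gene, of -1.01. The 6 members that did not pass included CDK1 (0.20, -0.20 under median scaling) and PTTG1 (0.29, -0.14 under median scaling), which are central to mitotic entry and to sister chromatid separation.

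Genes of DNA replication and G1/S gave 19 lower and 1 higher of 33, against 22.8% and 20.7% of all genes, with a median of -0.44 (-0.80 with median scaling). CHAF1A, a subunit of the chromatin assembly factor, was 6.15 and 6.31 at 48 h, against 7.43, 7.44, 7.64 and 7.84 at 0 h (-1.36 ± 0.19, adjusted p = 0.00013). MCM5 and MCM2, subunits of the replicative helicase, had log2 fold changes of -1.05 and -1.03, and POLD1, the catalytic subunit of polymerase delta, one of -1.01. PCNA, the sliding clamp, did not pass (0.23, -0.17 under median scaling and -0.052 as the mean of its probes), and GINS4, a part of the helicase complex, was the member that rose (0.62), a call lost without either 48 h array (0.68 without replicate 1, 0.56 without replicate 2), without 0 h replicate 4 (0.65) and under median scaling (0.35). Of 15 clustered histone genes, 2 were higher and 5 lower. H4C3 fell (-1.07 ± 0.14, adjusted p = 7.1e-05) and H4C8 and H4C14 rose (1.19 and 0.96), and most transcripts of this class also lack a poly(A) tail.

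Promoters of these groups are shown because many members fell or rose together and their control elements are known. The lists hold genes known for these functions, so the shares of motifs describe the lists and are no evidence about the response to MPA. Sequences were taken from RefSeq (GRCh38.p14) as windows of 300 bases around the gene start, and only bases before the start are printed, 5′ to 3′ on the gene's strand, with the motif in capitals. The motif of mitotic genes is the cell cycle genes homology region (CHR), searched as TTTGAA or TTCGAA on both strands, which is bound by the DREAM and MMB complexes. It was in 21 of the 31 G2/M members with a window (67.7%), of which 17 were among the 26 lower members with a window, against 16.6% of all 27305 windows. The CCAAT box (CCAAT), which CHR promoters often carry as well, was in 26 of the 31 (83.9%) against 35.7% of all. The members with the largest fall that hold a CHR within 150 bases of the start are these.
PLK1: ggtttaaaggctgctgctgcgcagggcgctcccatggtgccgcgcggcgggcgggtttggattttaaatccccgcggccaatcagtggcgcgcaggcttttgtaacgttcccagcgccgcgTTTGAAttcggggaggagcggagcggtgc
DLGAP5: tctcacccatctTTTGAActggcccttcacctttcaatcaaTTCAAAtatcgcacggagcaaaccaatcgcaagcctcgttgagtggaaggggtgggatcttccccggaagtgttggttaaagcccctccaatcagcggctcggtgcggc
CDC20: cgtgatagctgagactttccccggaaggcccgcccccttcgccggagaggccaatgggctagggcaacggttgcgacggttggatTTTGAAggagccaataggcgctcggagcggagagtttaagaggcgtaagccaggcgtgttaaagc
They lie at chr16:23678739-23678888 (plus strand), chr14:55191586-55191735 (minus strand) and chr1:43358831-43358980 (plus strand), and the CHR of PLK1 begins 29 bases before the start.

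For DNA replication genes the motif is that of E2F factors, searched as TTTCCCGC, TTTGGCGC or TTTCGCGC on both strands, which can overlap one another. It was in 18 of the 30 members with a window (60%), against 2.79% of all windows, and in 10 of the 17 lower members with a window. UHRF1, a reader of hemimethylated DNA, POLE, the catalytic subunit of polymerase epsilon, and MCM6, of the helicase, had log2 fold changes of -0.90, -0.87 and -0.70. MCM6 holds several sites, of which a pair overlaps.
UHRF1: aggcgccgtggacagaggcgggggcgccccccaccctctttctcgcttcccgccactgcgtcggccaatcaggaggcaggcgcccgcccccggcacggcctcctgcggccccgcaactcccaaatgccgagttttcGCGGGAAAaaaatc
POLE: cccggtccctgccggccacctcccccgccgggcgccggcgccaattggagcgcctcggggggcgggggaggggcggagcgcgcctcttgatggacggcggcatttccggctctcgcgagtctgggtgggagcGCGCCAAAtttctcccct
MCM6: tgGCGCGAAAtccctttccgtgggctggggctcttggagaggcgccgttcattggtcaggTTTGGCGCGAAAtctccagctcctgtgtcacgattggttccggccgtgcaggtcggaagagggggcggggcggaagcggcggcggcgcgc
These lie at chr19:4909351-4909500 (plus strand), chr12:132687343-132687492 (minus strand) and chr2:135876444-135876593 (minus strand). The cyclic AMP response element TGACGTCA was in 2 of 17 immediate-early members with a window (11.8%) against 1.98% of all. One is MAFF, a small Maf factor with a log2 fold change of 1.11 on its brightest probe, while another probe detected on all 6 arrays fell (-0.80 ± 0.21, adjusted p = 0.0089 over all probes).
MAFF: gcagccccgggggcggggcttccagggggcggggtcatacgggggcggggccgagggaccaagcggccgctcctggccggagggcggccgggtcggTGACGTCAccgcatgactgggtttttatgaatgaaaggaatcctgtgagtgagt
It lies at chr22:38201844-38201993 (plus strand). A match of letters is a description and not a measured binding site.

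Immediate-early genes, which are switched on without new protein synthesis when cells receive growth or stress signals, were higher. Of 24 tested, 17 rose and 0 fell (0 at an unadjusted p under 0.05), against 20.7% and 22.8% of all genes, with a median log2 fold change of 0.78 (0.44 with median scaling). ATF3, a transcription factor of the stress response, was 12.31 and 12.26 at 48 h, against 9.30, 9.41, 9.47 and 9.42 at 0 h (2.89 ± 0.14, adjusted p = 1.1e-08). CCN1, a matricellular protein, was 11.85 and 11.57 at 48 h, against 9.24, 9.32, 9.11 and 9.64 at 0 h (2.38 ± 0.15, adjusted p = 1.7e-07). FOSB, an AP-1 subunit, was 9.77 and 9.36 at 48 h, against 7.40, 7.31, 7.68 and 7.27 at 0 h (2.15 ± 0.15, adjusted p = 4.3e-07). In none of these did the groups overlap. EGR1, a zinc finger factor, was higher by 1.82 on the log2 scale, JUN by 0.82 and FOS by 0.46, of which JUN and FOS did not pass under median scaling (0.43 and 0.16) and FOS did not without 48 h replicate 1 (0.38). IER2 (-0.23) and EGR3 (-0.36) did not pass.

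The genes that restrain MAP kinase signaling gave 8 higher and 1 lower of 16, against 20.7% and 22.8% of all genes. DUSP6, the phosphatase of ERK, was 9.69 and 9.76 at 48 h, against 7.84, 7.44, 8.01 and 7.95 at 0 h (1.91 ± 0.15, adjusted p = 1.1e-06). DUSP1 and DUSP14, phosphatases of the same family, and SPRY1, an inhibitor of receptor signaling, had log2 fold changes of 1.47, 1.47 and 1.46. The member that fell was ETV5 (-0.51), a transcription factor of the pathway.

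Among receptor tyrosine kinases, their ligands and the binding proteins of growth factors, 8 of 29 were higher and 12 lower. Besides AXL and IGFBP5, PDGFRA, the receptor of platelet-derived growth factor, was 8.61 and 9.18 at 48 h, against 10.88, 10.64, 10.58 and 10.35 at 0 h (-1.72 ± 0.17, adjusted p = 8.4e-06). FGFR4, a receptor of fibroblast growth factors, fell by a similar amount (-1.71 ± 0.16, adjusted p = 3.9e-06). Genes of TGF-beta and BMP signaling gave 5 higher and 7 lower of 20, against 20.7% and 22.8% of all genes. CITED2, a transcriptional coregulator, was 10.52 and 11.06 at 48 h, against 8.51, 8.42, 8.70 and 8.05 at 0 h (2.37 ± 0.19, adjusted p = 9.6e-07). SMAD3, the effector of TGF-beta, was 11.55 and 11.65 at 48 h, against 9.66, 9.80, 9.86 and 9.60 at 0 h (1.87 ± 0.14, adjusted p = 5.8e-07). SMAD6, an inhibitor of BMP signaling, and ID3, a BMP target, were lower (-1.99 and -1.39).

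MYC, the driver of growth genes, was 12.78 and 12.78 at 48 h, against 11.72, 11.93, 11.82 and 12.12 at 0 h, with no overlap (0.89 ± 0.14, adjusted p = 0.00023). CCND1, cyclin D1, was higher (0.96 ± 0.13, adjusted p = 0.0001), and MXD4, an antagonist of MYC, more so (1.71 ± 0.12, adjusted p = 4.5e-07). Genes of the nucleolus and of ribosome assembly gave 10 lower and 1 higher of 29, and the member that rose was MYC itself. BOP1, a factor of 28S rRNA maturation, was 9.68 and 10.08 at 48 h, against 11.14, 11.17, 11.35 and 11.19 at 0 h (-1.33 ± 0.14, adjusted p = 1.4e-05). FBL, the methyltransferase of rRNA, and HEATR1, a factor of polymerase I transcription, were lower by smaller amounts (-0.83 and -0.85), while NCL, the nucleolin gene, did not pass (-0.06). Ribosomal protein genes gave 9 lower and 1 higher of 40, against 22.8% and 20.7% of all genes, so only the lower share was near that of all. Under median scaling 17 of them were lower and 0 higher.

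Chaperones of the endoplasmic reticulum (ER) were lower. Of 25 tested genes of this compartment and its stress response, 14 fell and 3 rose, with 9 at least 2-fold lower and a median log2 fold change of -0.65 (-0.99 with median scaling). HSPA5, the BiP chaperone, was 7.997 and 7.56 at 48 h, against 10.11, 10.01, 10.14 and 10.004 at 0 h (-2.29 ± 0.15, adjusted p = 2.3e-07). CANX, the lectin chaperone calnexin, was 8.84 and 8.87 at 48 h, against 10.22, 10.08, 10.17 and 10.16 at 0 h (-1.31 ± 0.13, adjusted p = 6.3e-06). The groups of both were separate. PDIA4, a disulfide isomerase, and MANF, a secreted stress factor, had log2 fold changes of -1.40 and -1.22, and XBP1, a transcription factor of the response, of -1.01. DNAJB9 and FKBP14, which also belong to the compartment, were higher (0.74 and 0.84), though not past the test under median scaling (0.41 and 0.44). DDIT3, the CHOP factor of the integrated stress response, was 9.81 and 9.70 at 48 h, against 8.10, 8.33, 8.46 and 8.31 at 0 h (1.46 ± 0.12, adjusted p = 1.8e-06), the opposite direction to HSPA5.

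**Figure D3:**
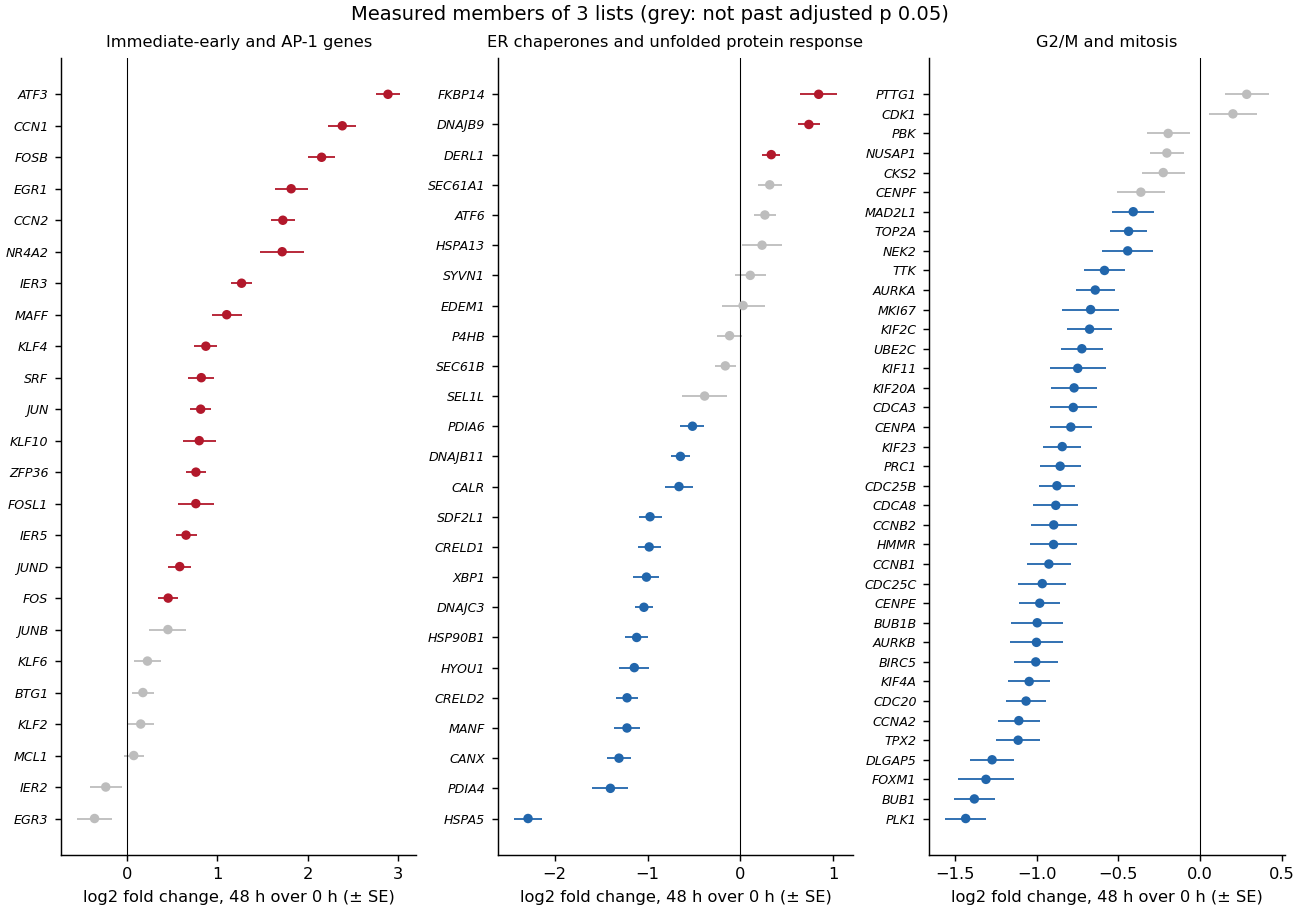
Log2 fold change at 48 h over 0 h with its SE (x axis) of every tested member of the immediate-early and AP-1 list, the list of ER chaperones and stress response and the G2/M list. Colour marks genes past the threshold (red higher, blue lower), which are 17 of 24, 17 of 25 and 32 of 38.

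The ATF4 and amino acid list, to which DDIT3 belongs, was mixed, with 7 higher and 6 lower of 23. CBS, which makes cystathionine from homocysteine, was 10.56 and 10.44 at 48 h, against 6.86, 6.81, 6.82 and 6.52 at 0 h (3.75 ± 0.15, adjusted p = 3.4e-09). It was the largest change of this list, and the groups did not overlap. NUPR1, a stress-induced chromatin protein, was at least 1.60-fold higher, and SLC7A11, the cystine transporter, was at least 1.26-fold lower. Heat shock genes gave 10 lower and 3 higher of 23. CRYAB, the small heat shock protein alpha-B crystallin, was at least 2.74-fold higher and HSPB8, another small one, rose (1.41), while the probes of DNAJB6 went opposite ways, with -1.25 on the brightest and 0.61 ± 0.13 on another (adjusted p = 0.0025 over all probes).

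Lipid genes fell in several steps of synthesis. PPARG, the nuclear receptor of fat storage, was 8.54 and 8.39 at 48 h, against 10.65, 10.55, 10.32 and 10.43 at 0 h (-2.02 ± 0.12, adjusted p = 1.1e-07). SCD, the stearoyl-CoA desaturase, was 11.74 and 12.23 at 48 h, against 13.63, 13.28, 13.29 and 13.49 at 0 h (-1.44 ± 0.15, adjusted p = 1.4e-05). FASN, the fatty acid synthase, was 10.68 and 10.76 at 48 h, against 11.89, 11.90, 12.21 and 12.49 at 0 h (-1.40 ± 0.17, adjusted p = 3.5e-05). All 3 genes had every 48 h value below the 0 h values. Of 23 genes of this list 10 fell and 2 rose, against 22.8% and 20.7% of all genes, with a median of -0.37. Cholesterol genes gave 10 lower and 6 higher of 23, of which the higher share is near that of all genes. LRP8, a receptor of apolipoprotein E and reelin, was 7.45 and 7.47 at 48 h, against 10.14, 10.01, 10.03 and 10.27 at 0 h (-2.65 ± 0.14, adjusted p = 4.1e-08), the largest fall of the list. INSIG1, the sterol sensor partner, and MVD and LSS, enzymes of synthesis, were lower (-1.26, -1.22 and -0.99), and ABCA1 and ABCG1, which export cholesterol, were higher (0.90 and 0.95).

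Of 33 interferon-stimulated genes, 11 were lower, 9 of them at least 2-fold, and 7 higher, against 22.8% and 20.7% of all genes. The higher share is near that of all genes. Under median scaling 2 were higher and 13 lower. OAS2, which makes an activator of RNase L, was 5.69 and 5.33 at 48 h, against 7.88, 7.82, 7.84 and 7.97 at 0 h (-2.37 ± 0.15, adjusted p = 1.9e-07), detected on 1 of the 48 h arrays. IFIT2, an RNA-binding antiviral protein, was 7.75 and 8.02 at 48 h, against 9.84, 9.89, 9.46 and 9.72 at 0 h (-1.84 ± 0.18, adjusted p = 7.9e-06). IFI44L was at least 2.04-fold lower, and OASL fell as well (-1.95). The antigen presentation genes of the same list went up, HLA-B by 1.42 and TAP1, the peptide transporter, by 1.33. Among NF-kappaB targets and chemokines, 8 of 18 rose and 3 fell, against 20.7% and 22.8% of all genes. CXCL8, the neutrophil chemokine, was 8.46 and 8.63 at 48 h, against 6.63, 6.78, 6.41 and 6.74 at 0 h (1.91 ± 0.20, adjusted p = 9.7e-06). TNFAIP3, the inhibitor A20, rose (1.64), as did NFKBIZ (1.35), and CXCL10, an interferon-induced chemokine, was at least 2.18-fold lower.

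The genes that the study's text discusses for migration were given individually, and since they were picked on these samples their direction is no independent evidence. Of 20 tested, 9 rose and 7 fell. PRKCA, protein kinase C alpha, was 6.44 and 6.86 at 48 h, against 9.20, 8.97, 9.03 and 8.99 at 0 h (-2.40 ± 0.15, adjusted p = 1.2e-07). DOCK1, an activator of Rac, was 8.37 and 8.79 at 48 h, against 9.70, 9.82, 9.87 and 9.93 at 0 h (-1.25 ± 0.15, adjusted p = 2.8e-05), still lower than at 0 h although higher than at 24 h. CEACAM1, an adhesion molecule of epithelia, was 12.07 and 12.48 at 48 h, against 9.95, 9.86, 9.98 and 9.63 at 0 h (2.42 ± 0.14, adjusted p = 8.9e-08). CDH10, a cadherin known from brain, was 9.26 and 9.38 at 48 h, against 6.61, 6.36, 5.66 and 6.57 at 0 h (3.02 ± 0.23, adjusted p = 6.8e-07). In each of these the groups did not overlap. NOS3, endothelial nitric oxide synthase, was below detection at 0 h and at least 6.87-fold higher.

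Other members were small, or their probes disagreed. SRC, the tyrosine kinase, fell (-0.64 ± 0.16, adjusted p = 0.0056), and MMP1, the collagenase, and BSG, the CD147 gene, rose (0.56 ± 0.16, adjusted p = 0.013 and 0.41 ± 0.14, adjusted p = 0.033). Without 48 h replicate 2, SRC (-0.42) and MMP1 (0.41) did not pass, and BSG passed neither without 48 h replicate 1 (0.29) nor without 0 h replicate 1, 2 or 3 (0.37, 0.40 and 0.41), nor did MMP1 and BSG under median scaling (0.27 and 0.04). AKT1 (-0.32), ARRB1 (-0.22) and ITGB5 (-0.10) did not pass, but AKT1 did under median scaling (-0.74) and without 0 h replicate 1 (-0.44), and other probes of ITGB5 and ARRB1 did not all share the result. One probe of ITGB5 fell (-0.43 ± 0.13, adjusted p = 0.016 over all probes). One probe of ARRB1, detected on all 6 arrays at a mean of 7.19 at 48 h and 9.99 at 0 h, fell far (-2.80 ± 0.11, adjusted p = 6.4e-09 over all probes), the third gave -0.36 without passing, and the mean of the probes was lower (-1.13, adjusted p = 5.9e-06). INF2, a formin of actin filaments, had levels of 12.57 and 12.73 at 48 h, against 12.40, 12.51, 12.46 and 12.67 at 0 h on its brightest probe, where the groups overlapped (0.14 ± 0.13, adjusted p = 0.41). Its probes disagreed, since another probe, also detected on all 6 arrays, gave -2.63 ± 0.19 (adjusted p = 9.0e-07 over all probes) and the third gave -0.16. The mean of the probes made the gene lower at -0.88, and median scaling turned the brightest probe to -0.29 without passing the test.

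Adhesion and matrix genes were otherwise mixed. Of 29 integrin, laminin and focal adhesion genes 7 rose and 7 fell, near the 20.7% and 22.8% of all genes. ITGB2, the beta chain of the leukocyte integrins, was 8.11 and 7.81 at 48 h, against 4.93, 5.03, 4.74 and 5.32 at 0 h, at least 4.87-fold higher. LAMB3, a chain of laminin-332, rose (1.19 ± 0.17, adjusted p = 0.00012), and SPP1, osteopontin, was at least 2.31-fold lower. FSCN1, which bundles actin, was 7.18 and 7.25 at 48 h, against 8.53, 8.53, 8.62 and 8.80 at 0 h (-1.41 ± 0.14, adjusted p = 5.9e-06), and MSN, the moesin gene, fell too (-1.14). Matrix proteases and their inhibitors gave 10 higher and 0 lower of 22 (2 lower at an unadjusted p under 0.05), against 20.7% and 22.8% of all genes. Under median scaling they gave 6 higher and 2 lower, and the list median was -0.08 instead of 0.14. Among them, SERPINB5, the maspin inhibitor, was 12.68 and 12.66 at 48 h, against 10.83, 11.01, 11.15 and 11.13 at 0 h (1.64 ± 0.12, adjusted p = 5.5e-07). CLDN1, a sealing claudin, rose (1.28 ± 0.13, adjusted p = 7e-06), in the opposite direction to CLDN2.

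Differentiation genes included hormones of the stomach and gut. GAST, the gastrin gene, was 8.37 and 8.27 at 48 h, against 5.42, 6.04, 5.91 and 5.94 at 0 h (2.50 ± 0.20, adjusted p = 1.3e-06), and CCK, its relative cholecystokinin, was 7.98 and 7.60 at 48 h, against 6.25, 5.75, 6.22 and 6.10 at 0 h (1.71 ± 0.16, adjusted p = 5.7e-06). Neither overlapped. LGR5, a marker of gut stem cells, and GATA5, a factor of the endoderm, were lower (-1.25 and -1.08). In the glycolysis and hypoxia list, with 11 higher and 11 lower of 31, CA2, a carbonic anhydrase, and BNIP3L, a mitophagy receptor, rose (2.28 and 1.49), while GPI, an enzyme of glycolysis, fell (-1.18). SLC30A1, the zinc exporter, and MT2A, a metallothionein, were higher (2.02 and 1.56), and MT1F, of the same family, was lower (-0.86).

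Lists of the basic machinery changed little by size. Proteasome genes gave 14 lower and 1 higher of 29 and 0 changes of 2-fold. Respiratory chain genes gave 6 lower and 2 higher of 29, and tRNA synthetases 7 lower and 1 higher of 18, led by VARS1 (-1.08). Of all genes, 22.8% were lower and 20.7% higher. Under median scaling 23 proteasome, 16 respiratory chain and 12 tRNA synthetase genes were lower and 0 higher, where 3574 of all genes were lower. Lysosome and autophagy genes gave 13 higher and 1 lower of 32, none of them 2-fold, with a median of 0.27. Under median scaling these were 1 higher and 4 lower, with a median of -0.13. GRN, progranulin, and SQSTM1, the p62 receptor, led them (1.00 and 0.81), SQSTM1 without passing the test under median scaling (0.40). Of the 5 reference genes of the study's RT-PCR, 4 did not pass, among them GAPDH (-0.11), and MRPL19 was slightly lower (-0.40 ± 0.14, adjusted p = 0.03), a call lost without any 1 of 48 h replicate 1, 48 h replicate 2, 0 h replicate 1 or 0 h replicate 2 (-0.36, -0.45, -0.38 and -0.39). Under median scaling 4 of the 5 were lower past the test, GAPDH among them (-0.50). The median log2 fold change of these reference genes was -0.385 (-0.586 with median scaling). That of all genes was -0.038 (-0.313 with median scaling). ESD, which did not pass on its brightest probe (-0.43), was lower on a dimmer probe detected on every array of both groups (-0.51 ± 0.11).

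**Figure D4:**
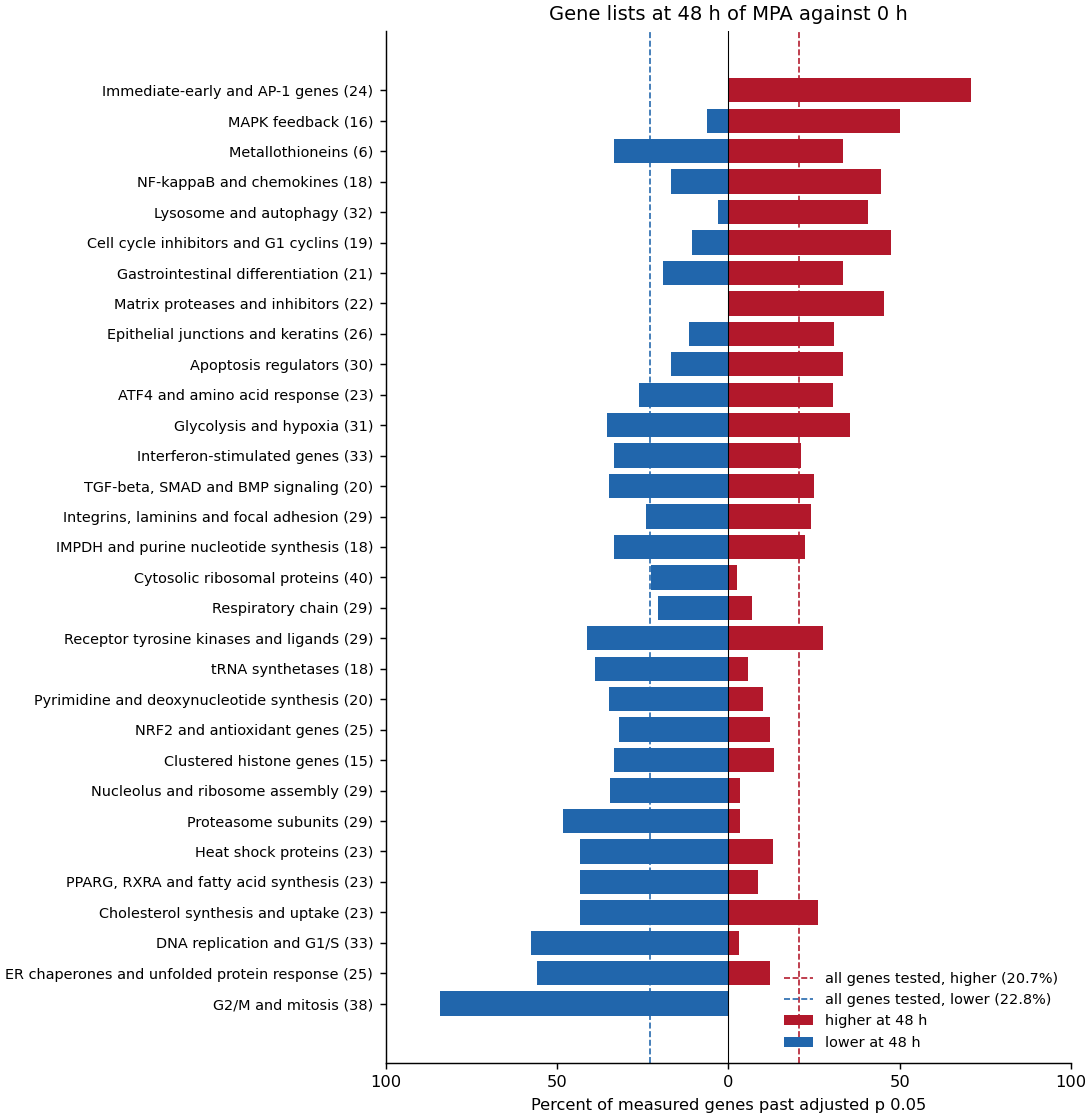
Percent of the tested genes of each pathway list (number tested in parentheses) that were lower (bars to the left) or higher (bars to the right) at 48 h than at 0 h. The dashed lines give the same over all genes, 20.7% higher and 22.8% lower, and the lists are ordered by their median log2 fold change, from immediate-early genes at the top to G2/M genes at the bottom; lists of cell markers and lists not reported here are left out.

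The place of 48 h among the times was read from direct comparisons with 24 h and 72 h, which share the 2 arrays of 48 h. Against 24 h, 473 genes (4.52%) were higher and 685 (6.54%) lower at 48 h, and against 72 h, 128 (1.22%) were higher and 84 (0.802%) lower. Of the genes called against 0 h, 3694 passed the test against neither 24 h nor 72 h, which does not show equal levels with 2 arrays in each group. In all, 33 genes differed from both times in the same direction, 22 higher and 11 lower at 48 h. Most of the 10469 genes tested passed neither test, since 1158 passed against 24 h and 212 against 72 h. These counts fell when any 1 array was left out, to 517 and 427 in all against 24 h without 48 h replicate 1 and without 48 h replicate 2, to 398 and 282 without 24 h replicate 1 and without 24 h replicate 2, and to between 70 and 111 against 72 h, lowest without 48 h replicate 1.

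Against 24 h, the largest rises were those of RNA28SN5 (a difference of 4.41), RIMBP3 (3.40), RN7SK (2.74), NOS3 (2.32) and RNU6ATAC (2.29). Of these, RIMBP3, RN7SK and RNU6ATAC were lower at 48 h than at 72 h, by -1.50, -1.09 and -1.39, so their level at 48 h lay between those of the other times. DOCK1 was higher than at 24 h (1.35), and MYC too (0.75). The largest falls after 24 h were those of LGALS4 (-2.44), SORCS2, a sorting receptor (-2.24), SULT2A1, a sulfotransferase of steroids (-2.10), C2orf48 (-2.02) and TEX14, a testis gene (at least 1.87-fold). Of these, LGALS4 was lower than at 0 h, SORCS2, SULT2A1 and C2orf48 remained higher than at 0 h, and TEX14 was detected neither at 48 h nor at 0 h.

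Against 72 h, the largest excesses at 48 h were those of RNASE7, an antimicrobial ribonuclease of skin (at least 5.30-fold), LINC01629 (at least 3.72-fold), SLC2A5, the fructose transporter (2.18), MYLK, the myosin light chain kinase (1.93), and LCE1B (1.86). MYLK and LCE1B were also higher than at 24 h (1.21 and 0.97), whereas RNASE7 and LINC01629 were lower than at 24 h (-0.90 and -1.15). The lowest levels relative to 72 h, besides RIMBP3 and RNU6ATAC, were those of CSMD3 (at least 2.86-fold), CYP4X1 (at least 2.08-fold) and H3C14 (-1.55), of which CSMD3 and CYP4X1 were detected on no 48 h array. SUGCT, LGALS7, CRYAB and KLK6, a kallikrein, also had a higher level at 48 h than at both times, with differences from 24 h of 1.29, 1.06, 1.54 and 0.79 and from 72 h of 1.04, 1.44, 1.15 and 0.75.

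**Figure D5:**
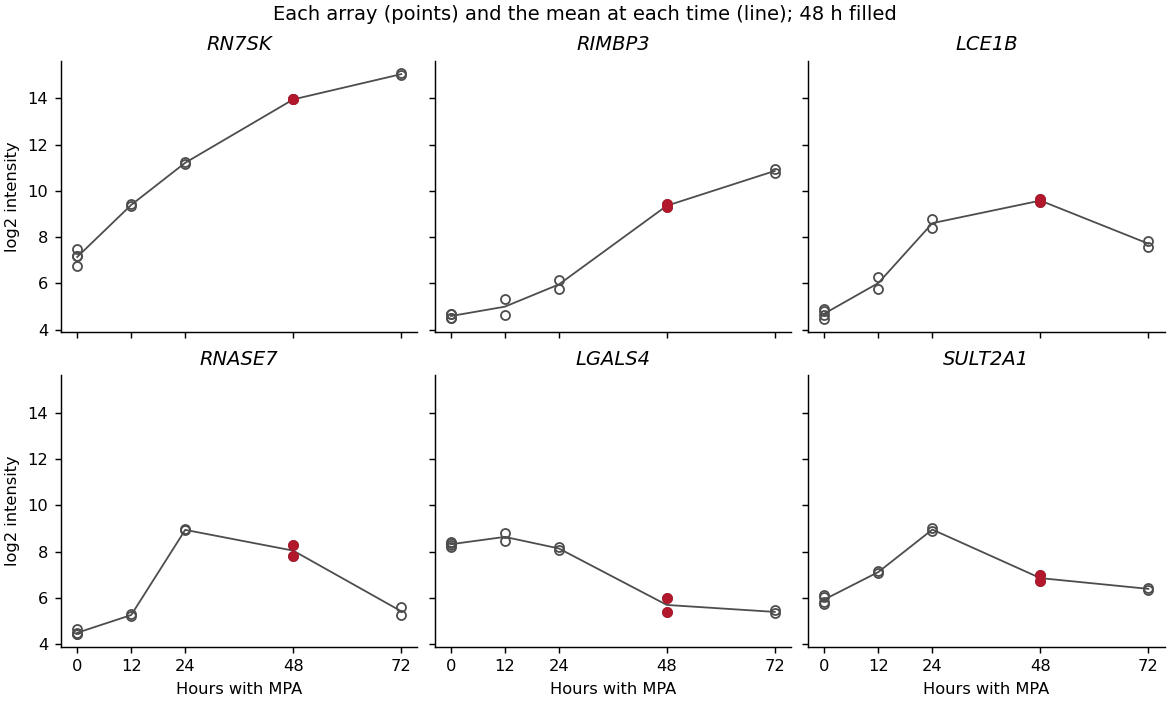
Log2 intensity (y axis) of 6 of these genes against hours with MPA (x axis), with a point for each array, the 48 h arrays filled, and a line through the means. RN7SK and RIMBP3 lie between 24 h and 72 h at 48 h, LCE1B is highest at 48 h, and RNASE7 and SULT2A1 are highest at 24 h.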

How the data were processed

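RNA of AGS cells was labelled from an oligo-dT primer and hybridised by the authors to Illumina HumanHT-12 arrays. The deposited intensity is the mean bead signal of each probe without normalization, the deposited detection score is a fraction from 0 to 1 (1 minus the detection p), and the deposited log2 values were made by the authors with lumi, whose version and options the sources used here leave unstated. Probe annotation is of version 3, while the study names version 4.

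Background was corrected with normexp (offset 16), then log2 values were quantile normalized (limma 3.58.1, R 4.3.3). Of 48803 probes, 28098 name 1 gene. A probe had to be detected (p under 0.01) on 2 or more arrays, and the brightest one stood for its gene, which gave 10469 of 18852 genes. The limma model held 5 groups, all 12 arrays and no covariate. Benjamini-Hochberg adjustment ran over every gene tested, with a threshold of 0.05.

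Named genes are those with the 12 highest and 12 lowest changes (past the threshold, outside the 0 h range and detected on every array of the group with the higher level), up to 4 leading members of each of 39 lists, those discussed in the study's text, those with the 5 highest and 5 lowest differences from 24 h and 72 h, and IMPDH1, IMPDH2, MDM2, CDKN1A and MYC for their known roles. Other names were chosen after their values were seen. Some members and lists are not reported here. The comparison and the lists were chosen with earlier results of these data known. The number of arrays limits the precision. The alternatives were the authors' values, other background corrections, scalings, filters and probe summaries, the groups compared alone, a variance trend, a replicate block and each array left out. Code was tested on simulated data.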

Additional observations from a re-analysis of the deposited data

Results flagged for a closer look

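Where the level at 48 h was tested against that at 24 h or 72 h, 52 differences from 24 h and 20 from 72 h passed the test among the 170 genes given values. The p-values are adjusted limma p-values under 0.05, and values are log2 differences, 48 h minus the other time.

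Higher than at 24 h were, besides those given above with both times, CITED2 (1.07), ITGB2 (0.82), MXD4 (0.80), KLF5 (0.73), HSPA5 (0.67), DUSP6 (0.65), HLA-B (0.63), BNIP3L (0.62) and SPRY1 (0.51), and the histone genes H3C14 (1.11) and H4C14 (0.81). RNA28SN5 (4.41), RIMBP3 (3.40), RN7SK (2.74), NOS3 (2.32), RNU6ATAC (2.29), CRYAB (1.54), DOCK1 (1.35), SUGCT (1.29), MYLK (1.21), LGALS7 (1.06), LCE1B (0.97), KLK6 (0.79) and MYC (0.75) belong to the same group. HSPA5 and DOCK1 were nevertheless lower than at 0 h.

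Lower than at 24 h were the mitotic and replication genes DLGAP5 (-0.74), FOXM1 (-0.69), BIRC5 (-0.59) and POLD1 (-0.56), and, of the genes with the largest falls from 0 h, PAGE4 (-1.42), CLDN2 (-1.41), SLCO2A1 (-1.27), SLC38A10 (-1.16), NLRP7 (-1.04), LRP8 (-0.77), D2HGDH (-0.75) and SNCAIP (-0.68). The others were LGALS4 (-2.44), SORCS2 (-2.24), SULT2A1 (-2.10), C2orf48 (-2.02), TEX14 (-1.81), LINC01629 (-1.15), MT1F (-0.96), RNASE7 (-0.90), CYGB (-0.81), MSN (-0.79), ADSS1 (-0.78), SPP1 (-0.78), SLC30A1 (-0.69), ID3 (-0.59), ABCG1 (-0.59) and GPI (-0.56). ADSS1, SLC30A1, CYGB and ABCG1 were still higher than at 0 h.

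Against 72 h, RNASE7 (2.62), LINC01629 (2.21), SLC2A5 (2.18), MYLK (1.93), LCE1B (1.86), AXL (1.55), AKR1B10 (1.44), LGALS7 (1.44), SORCS2 (1.40), NUPR1 (1.18), CRYAB (1.15), SUGCT (1.04), KLK6 (0.75) and C2orf48 (0.74) were higher at 48 h. CSMD3 (-1.77), CYP4X1 (-1.69), H3C14 (-1.55), RIMBP3 (-1.50), RNU6ATAC (-1.39) and RN7SK (-1.09) were lower at 48 h.

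For some of these fitted differences the gene was detected on no array of 48 h or on no array of the other time, so only a bound was measured. Against 24 h the bounds are at least 1.25-fold lower for CLDN2, 1.32-fold for SPP1 and 1.87-fold for TEX14, none for NLRP7, and at least 1.07-fold higher for H3C14, detected on 1 of the 48 h arrays. Against 72 h they are at least 5.30-fold higher for RNASE7, 3.72-fold for LINC01629, 2.18-fold for SORCS2 and 1.65-fold for NUPR1, and at least 2.86-fold lower for CSMD3 and 2.08-fold for CYP4X1.

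A 0 h array far from the other 3 was found for 5 of the 170 genes, and chance alone marks about 1 in 20 groups of 4 in this way. CBS was at 6.52 on 0 h replicate 4 and 6.81 to 6.86 on the others, COL1A1 at 6.44 on 0 h replicate 1 and 6.71 to 6.72 on the others, and H4C14 at 5.92 on 0 h replicate 2 and 6.38 to 6.44 on the others. IER2 was at 6.52 on 0 h replicate 3 and 5.96 to 6.04 on the others, and XBP1 at 12.65 on 0 h replicate 3 and 12.91 to 12.95 on the others.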

How the results depend on the processing

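The counts at 0.05 against 0 h stayed within 1.5 times of the main ones under the settings tried except that median scaling left 942 higher genes (3574 lower). Scaling to the median of probes detected on all arrays, chosen after seeing the data, gave 2444 higher and 2105 lower and a median of all genes of 0.021. Median scaling also gave 350 genes at least 2-fold higher and 933 lower, and 599 and 71 differing from 24 h and from 72 h. Genes at least 2-fold higher and lower numbered 305 and 199 with the authors' values, 294 and 184 without background correction and 366 and 260 with an offset of 50, which compresses low signals. With probes detected on all arrays, 364 genes were at least 2-fold higher and 131 differed from 72 h. Only the groups compared gave 660 genes against 24 h and 42 against 72 h, and scaling to detected probes gave 135 against 72 h. Leaving out 1 array gave 1613 to 2142 higher and 1709 to 2353 lower genes, 551 to 587 and 445 to 500 at least 2-fold, 282 to 517 against 24 h and 70 to 111 against 72 h. The cause of the other differences was not tested.

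Whether replicate numbers pair the arrays could not be decided. Over 20 pairs with the same number the correlation of deviations ran between -0.19 and 0.27, 3 of them over 0.1. Of 10 arrays, 3 matched their own number best. In a group of 2 arrays the deviations from the group mean mirror each other, so these values are not independent and cannot exclude pairing. With a replicate block, 1758 genes were higher and 1828 lower, 981 differed from 24 h and 166 from 72 h, and it moved no count by over 1.5 times. Among genes given values, IMPDH1 (-0.32), BSG (0.48), MMP1 (0.44), KLF5 (0.46) and GINS4 (0.32) lost their call under the block, SESN2 (0.68) gained one, and GAPDH, not called, turned to 0.085 with it. Over 170 genes and 17 alternatives, 2787 values kept their call, 38 lost it, 14 gained it and 11 changed sign. The sign changes under median scaling were INF2 (-0.29), CCNG1 (-0.19), CDK1 (-0.20), PCNA (-0.17) and PTTG1 (-0.14). With the mean of probes they were INF2 (-0.88) and PCNA (-0.052), with scaling to detected probes IER2 (0.035) and TEX14 (0.25), and without 48 h replicate 2 CYP4X1 (-0.055, to 0.307 without 48 h replicate 1). List medians that turned under median scaling beyond their spread were junctions and keratins (-0.20), G1 cyclins and inhibitors (-0.21) and gastric markers (-0.20). Signal over background limits the folds of dim genes.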

Other observations

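Genes of the skin barrier and of stratified epithelium were listed after their values had been seen, so this is a description. Of 57 such genes 27 were tested, and of these 18 were higher and 3 lower at 48 h, with a median log2 fold change of 0.93 (0.72 with median scaling), against 20.7% and 22.8% of all genes. Several of the higher ones, such as LCE1B, LGALS7, ABCA12 and RNASE7, were detected on no 0 h array and passed the filter only through arrays with MPA. FLG, counted as higher, was detected on no array of 48 h or 0 h. The filter can thus raise the higher count, which is no evidence about the set. Besides LCE1B and LGALS7, ABCA12, the lipid transporter of the skin barrier, was 8.93 and 8.91 at 48 h, against 5.22, 5.32, 5.36 and 4.70 at 0 h, at least 9.46-fold higher. RNASE7 was at least 5.13-fold higher, and CLCA2, a chloride channel regulator of skin, at least 1.81-fold. The envelope precursors SPRR1A and SPRR2D were at least 1.81-fold and 2.32-fold higher, and SFN, also called 14-3-3 sigma, rose (1.12 ± 0.18, adjusted p = 0.00031). Every one of these genes was above its 0 h range on both 48 h arrays. TGM2, tissue transglutaminase, fell (-1.76 ± 0.16, adjusted p = 2.8e-06), as did KRT13, a keratin of non-keratinizing stratified epithelium (-0.95 ± 0.17, adjusted p = 0.00075), and KRT10 of the suprabasal skin did not pass (0.12).

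Classes of RNA by RefSeq annotation were also compared after the values had been seen. Of 105 long noncoding RNAs, 48 were higher (45.7%) and 7 lower (6.67%), with a median of 0.37 (0.24 with median scaling). Of 10190 protein-coding genes, 20.5% were higher and 23% lower. Some of the higher long noncoding RNAs, such as LINC02783 and LINC01629, were detected on no 0 h array and passed the filter only through arrays with MPA. The filter can thus raise the higher count, which is no evidence about the class. Of 40 small nucleolar RNA genes, 4 rose and 9 fell against 0 h, with a median of -0.28. Under median scaling 3 were higher and 18 lower, and with arrays scaled to detected probes 8 were higher and 7 lower. SNORD43, counted as lower, was detected on no array of 48 h or 0 h. SNORD13, which guides acetylation of 18S rRNA, was 7.92 and 8.25 at 48 h, against 5.45, 4.70, 5.10 and 5.09 at 0 h, at least 5.30-fold higher, and SNORD46 rose (1.77 ± 0.18, adjusted p = 7.9e-06). RNU11, of the minor spliceosome like RNU6ATAC, was 7.08 and 7.14 at 48 h, against 5.91, 6.01, 6.15 and 6.31 at 0 h (1.02 ± 0.17, adjusted p = 0.00039). Over all 47 short noncoding RNA genes tested, 12 had risen and 0 had fallen since 24 h by limma, against 4.52% and 6.54% of all genes. At an unadjusted p under 0.05, 0 were lower.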
